A study of Homo sapiens with 18 samples.

Results

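The 35 genes described here are the stress sensors, chaperones, disulfide isomerases, degradation factors and membrane-associated proteins through which the endoplasmic reticulum (ER) folds and disposes of secretory proteins. They were chosen by name from the 36684 gene symbols of a count table of 18 RNA-seq libraries from Hep3B cells, a human hepatoma line, by the role of the protein they encode. This choice, and that of the further lists below, was made with earlier results of these data known. Shares set beside those of all genes are therefore descriptions. The libraries form 6 groups of 3. Con was the control without added free fatty acids (FFA), and Model was the FFA-induced steatosis model. FUCO-0.5, FUCO-1 and FUCO-2 were FFA-treated cells that also received fucoxanthin (FUCO), a carotenoid of brown seaweeds, at 0.5, 1 or 2 μM. RES was FFA-treated cells that also received Resmetirom, an agonist of the thyroid hormone receptor beta that served as the positive control. The FFA concentration, the treatment times and the Resmetirom dose of these libraries are not given in the sources used here, and neither FUCO nor RES was given without FFA, so each compound is read against Model. All groups share a cell line of tumour origin, which limits them as a model of hepatocytes.

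Proteins that enter the ER are folded by chaperones of the HSP70 and HSP90 families, by disulfide isomerases and by lectins that hold glycoproteins. When unfolded proteins accumulate, 3 membrane sensors start the unfolded protein response (UPR). IRE1 (gene ERN1) splices the XBP1 transcript, ATF6 is cut to release a transcription factor, and PERK (gene EIF2AK3) slows translation and favours the factor ATF4. The released factors bind short promoter elements and raise chaperone and ER-associated degradation (ERAD) genes. Hepatocytes are heavy secretors, and saturated fatty acids are a known trigger of the response in liver cells. Counts per gene show transcript abundance only and do not show splicing of XBP1, cutting of ATF6 or phosphorylation of PERK.

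The elements through which ATF6 and XBP1 act are shown first, because the same elements occur in members of several roles. The 250 bases before the transcription start were taken from RefSeq on GRCh38.p14 for the 31 members with an entry. PDIA3, DERL1, DERL3 and SEC24D had none. Each window precedes a single annotated start, and for EIF2AK3, PDIA4, PDIA6, CANX and DERL2 that start lies inside the span of the gene, so other starts of these genes were not searched. The ER stress response element (ERSE) was searched as CCAAT, then any 9 bases, then CCACG, and ERSE-II as ATTGG, then any single base, then CCACG, on both strands and with no mismatch. ERSE was found in XBP1, HSPA5, HSP90B1, CRELD2, CALR, CANX and SERP1, which is 7 of 31 members (22.6%), against 22 of 27305 promoters in all (0.0806%). ERSE-II was found in HYOU1, SDF2L1 and HERPUD1, which is 3 members (9.68%), against 14 promoters in all (0.0513%). The matches are printed below on the strand of the gene, 5′ to 3′, with the element in capitals. HSPA5 is given with its whole 250 bases (chr9:125241344-125241593, minus strand), because it is the standard reporter gene of the response, and the others with 10 bases on either side.
HSPA5: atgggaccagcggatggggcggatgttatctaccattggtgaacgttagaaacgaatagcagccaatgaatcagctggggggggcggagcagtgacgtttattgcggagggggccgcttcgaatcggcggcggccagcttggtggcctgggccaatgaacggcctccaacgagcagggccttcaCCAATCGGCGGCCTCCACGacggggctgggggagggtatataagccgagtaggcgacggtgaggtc
XBP1: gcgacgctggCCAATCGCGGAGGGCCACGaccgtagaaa
CANX: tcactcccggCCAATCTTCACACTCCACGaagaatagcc
HSP90B1: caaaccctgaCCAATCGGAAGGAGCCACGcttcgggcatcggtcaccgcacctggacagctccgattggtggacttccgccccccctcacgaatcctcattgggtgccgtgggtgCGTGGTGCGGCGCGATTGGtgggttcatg
CRELD2: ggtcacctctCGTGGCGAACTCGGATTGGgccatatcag
CALR: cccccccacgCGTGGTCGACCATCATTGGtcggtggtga
SERP1: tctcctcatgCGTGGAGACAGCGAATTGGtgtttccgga
HERPUD1: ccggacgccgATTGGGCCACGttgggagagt
SDF2L1: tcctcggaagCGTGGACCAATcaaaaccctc
HYOU1: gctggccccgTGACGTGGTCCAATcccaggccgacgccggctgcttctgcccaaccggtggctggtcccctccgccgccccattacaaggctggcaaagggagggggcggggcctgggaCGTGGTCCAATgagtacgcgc
These windows lie at chr22:28800593-28800631 (minus strand) for XBP1, chr5:179698768-179698806 (plus) for CANX, chr12:103930206-103930349 (plus) for HSP90B1, chr22:49918544-49918582 (plus) for CRELD2, chr19:12938374-12938412 (plus) for CALR, chr3:150546700-150546738 (minus) for SERP1, chr16:56932015-56932045 (plus) for HERPUD1, chr22:21642104-21642134 (plus) for SDF2L1 and chr11:119057264-119057403 (minus) for HYOU1. In XBP1, HSPA5 and CANX, and in the upstream copy of HSP90B1, the element reads in the direction of the gene, and HERPUD1 reads forward for ERSE-II. CRELD2, CALR, SERP1, SDF2L1, both copies of HYOU1 and the downstream copy of HSP90B1 hold it on the opposite strand, so the printed letters are its reverse complement. HYOU1 also held the UPR element TGACGTGG, which overlapped its upstream ERSE-II and is capitalised with it. That element occurred in 182 of 27305 promoters (0.667%). The amino acid response element bound by ATF4 complexes, searched as TGATG, then any single base, then AAT, was in 250 promoters (0.916%) and in no member. A match is a description of letters, and a promoter without a match may hold a degenerate copy.

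**Figure D1:**
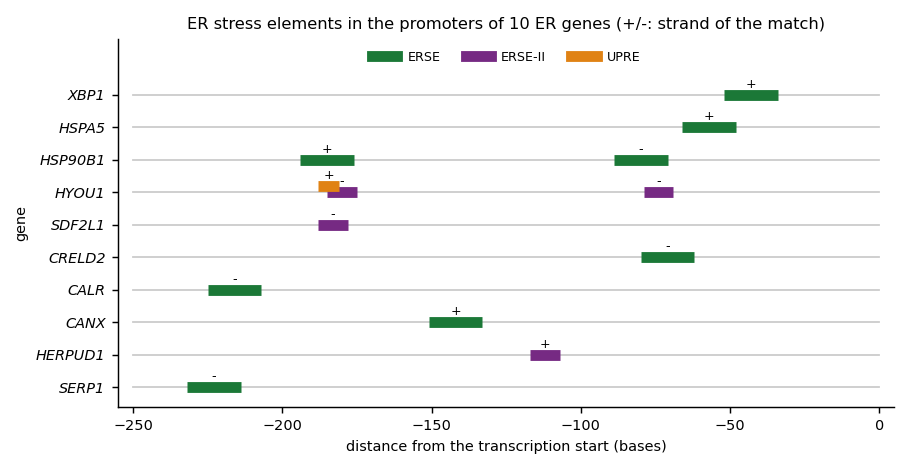
Position of each exact match in the 250 bases before the transcription start (x axis, bases from the start) of the 10 members that hold ERSE or ERSE-II, with the strand of the match beside it. HSP90B1 holds 2 ERSE copies and HYOU1 holds 2 ERSE-II copies, and the match of HSPA5 ends 48 bases before the start.

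Library totals ran from 16916688 to 23083498 counts, and 14557 genes passed the filter on low counts. Of the 35 members, 34 passed. DERL3, a retrotranslocation factor, had 0 to 3 counts in each library and was not tested. All 34 were also kept by a filter that asked for at least 10 counts in every library. Levels are given in CPM, the counts scaled to a common library size with TMM factors, and differences as log2 fold changes ± SE from the edgeR quasi-likelihood fit with Benjamini-Hochberg adjusted p over all 14557 genes, called at an adjusted p under 0.05. The 10 hepatocyte and hepatoma markers were all detected, and of the 12 markers of other cell types, PTPRC, CD3E, CD68, VWF, CDH5, COL3A1 and DCN had at most 7 counts in any library. The other 5 passed the filter. The summed leukocyte list was at 5.51 to 7.22 CPM in Con, 16 to 21.8 in Model, 14.1 to 16.6 in FUCO-2 and 16.9 to 18.5 in RES, and the endothelial list at 0.162 to 0.751, 1.15 to 1.45, 0.633 to 1.33 and 0.606 to 0.726 CPM. The fibroblast list was at 18.4 to 21 CPM in Con, 12.3 to 15.6 in Model, 10.2 to 12.8 in FUCO-2 and 2.94 to 3.51 in RES. The part of these lists in the results was not tested. The RES libraries stood apart from all others on the first principal component (68.5 to 72.9, against −27.4 to 0.17). In bulk RNA, fewer cells of a kind and less RNA per cell cannot be told apart. The p-values set a difference between groups against the spread between libraries within groups, estimated over all 18 libraries together.

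Per kilobase of the canonical transcript, the mean levels over all 18 libraries spanned from 748 CPM per kb for CALR to 5.68 for ERN1. The most abundant members were the calcium-binding lectin CALR, the disulfide isomerase P4HB (493), and the chaperones HSP90B1 (458) and HSPA5 (379). The sensors ATF6 (10.6), EIF2AK3 (10.2) and ERN1 were the least abundant. The summed level of the 34 members was 9927, 10060 and 10664 CPM in Con and 12617, 12730 and 13183 CPM in Model. With FUCO it was 10623, 10840 and 11084 CPM at 0.5 μM, 9753, 9774 and 10578 CPM at 1 μM and 8764, 8937 and 9111 CPM at 2 μM. The RES libraries gave 13193, 13847 and 13900 CPM. On this sum, Model and RES were therefore the high groups, every FUCO library lay below every Model library, and all 3 FUCO-2 libraries lay below all 3 Con libraries. The TMM factors differed between groups. They were 0.9326 to 0.9447 in Con, 0.9727 to 0.9833 in Model, 1.009 to 1.022 in FUCO-2 and 1.071 to 1.078 in RES. Before scaling, the members made up 0.9253% to 1.007% of counts in Con, 1.238% to 1.282% in Model and 1.415% to 1.497% in RES. In FUCO-2 they made up 0.8837% to 0.931%, which overlaps Con. The sum is weighted to abundant members. Mean levels over all libraries were 1485 CPM for HSPA5, 1423 for CALR, 1273 for HSP90B1 and 1201 for P4HB, but 30.8 CPM for EDEM2.

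**Figure D2:**
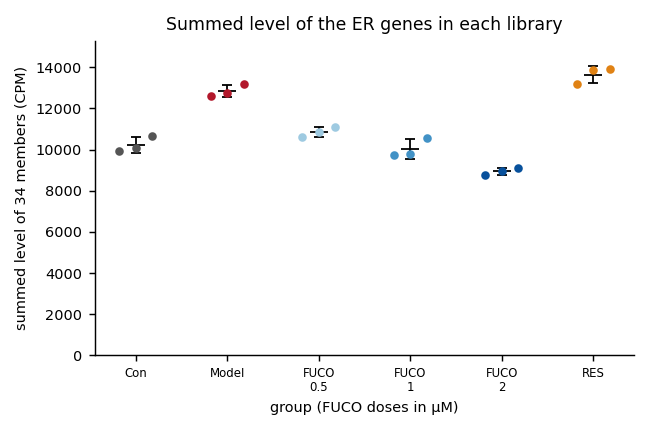
Summed level of the 34 tested members in each library (points, CPM on the y axis) with the mean ± SD of the 3 libraries of each group. The FUCO-2 libraries sit between 8764 and 9111 CPM, below Con, and the RES libraries between 13193 and 13900 CPM.

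FFA raised 13 of the 34 members and lowered 3 (Model against Con, median log2 fold change 0.16), where 8.43% of all genes tested were higher and 9.12% lower. The rises lay in the chaperones (5 of 9), in the disulfide isomerases (4 of 4), in EIF2AK3, CALR, HERPUD1 and SEC24D, and the falls were the sensor ERN1 and the mannosidase-like ERAD factors EDEM1 and EDEM3. Members were lower with FUCO at every dose. At 0.5 μM, 10 were lower and 0 higher than in Model (median −0.22), against 1.16% lower and 0.289% higher of all genes. At 1 μM, 17 were lower and 0 higher (median −0.29), against 2.32% and 0.893%. No member was higher at these doses by an unadjusted p under 0.05 or by DESeq2 either. At 2 μM, 28 were lower and 2 higher (median −0.42), against 9.71% and 10.8%. With RES, 16 members were higher and 3 lower than in Model (median 0.16), where 24.4% of all genes were higher and 25.1% lower. The medians over all genes tested lay between −0.01 and 0.01 in all 7 comparisons made here, and all comparisons with Model share its libraries.

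The count at 0.5 μM rested on few libraries. Without Model replicate 1, 2 or 3 it was 4, 5 or 3 members, and without FUCO-0.5 replicate 1, 2 or 3 it was 4, 5 or 6, all of them lower. The summed CPM of the hepatocyte and hepatoma markers moved alongside the treatments, from 59058 to 63324 in Con, 48899 to 49741 in Model and 33574 to 37516 in FUCO-2 to 15586 to 15731 in RES. Their part in the ER genes' differences was not tested.

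**Figure D3:**
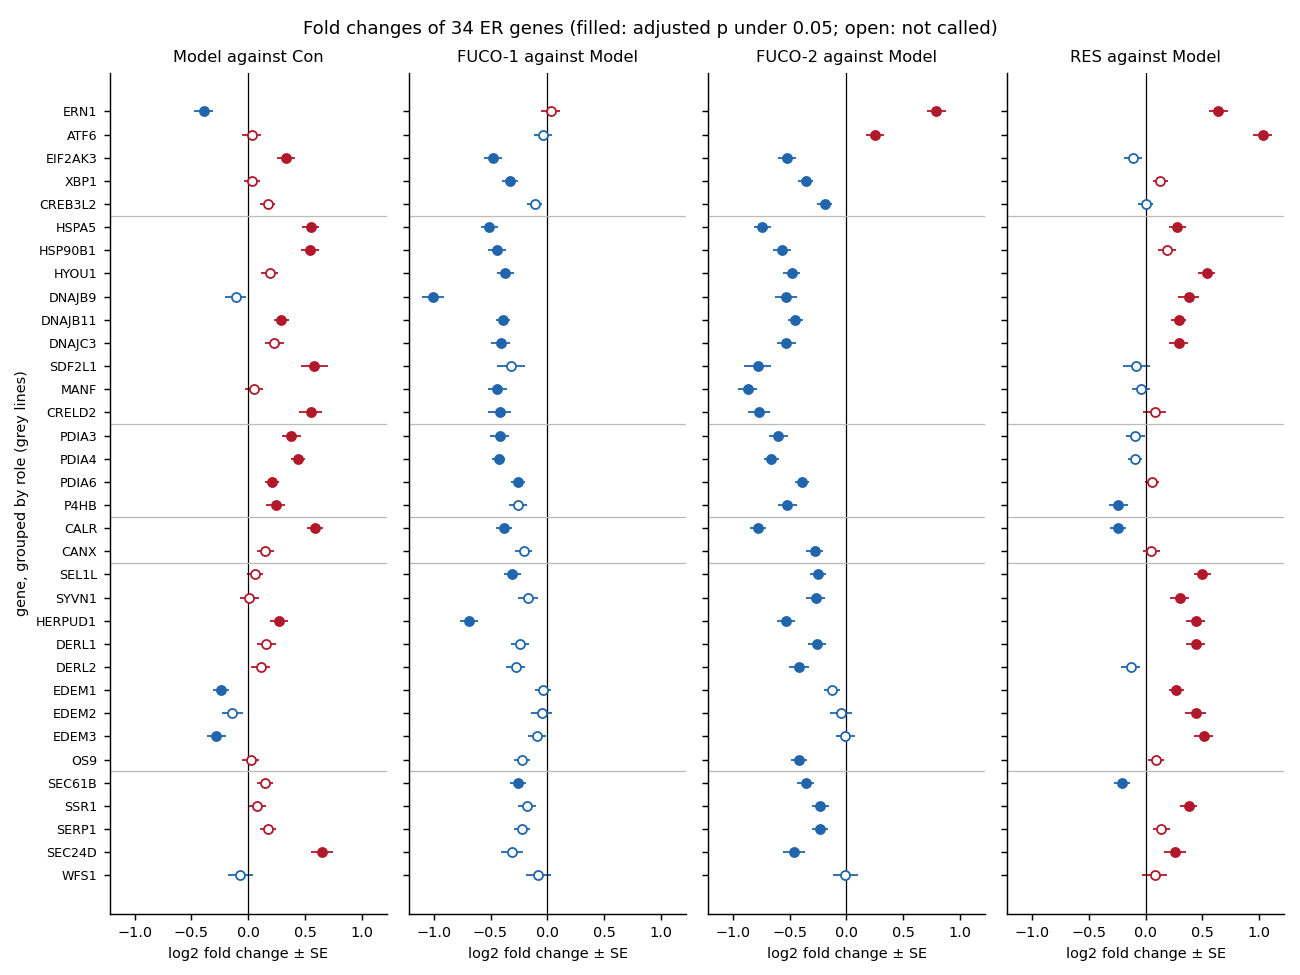
Log2 fold change ± SE (x axis) of the 34 tested members, grouped by role from sensors at the top to translocation and membrane genes at the bottom, in 4 comparisons. Filled points passed an adjusted p of 0.05. In FUCO-2 against Model 28 filled points lie to the left of 0 and 2 (ERN1 and ATF6) to the right.

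Among the sensors, ERN1 (chr17:64039142-64130144), which encodes the kinase and RNase IRE1, was lower with FFA and higher at FUCO-2 and with RES. Its level was 46.2, 45.8 and 48 CPM in Con and 36.8, 35.3 and 34.6 CPM in Model. FUCO-0.5 gave 31.1, 33.4 and 37.3 CPM, FUCO-1 gave 36.7, 37.4 and 34.6, FUCO-2 gave 60.6, 68.6 and 54.7, and RES gave 57.9, 55.3 and 53.3. The Model and lower FUCO libraries formed a low set, and those of FUCO-2 and RES lay above Con without overlap. FFA lowered ERN1 by a log2 fold change of −0.39 ± 0.084 (adjusted p = 0.00179). It was higher than Model at FUCO-2 (0.79 ± 0.083, adjusted p = 4.2e-07) and with RES (0.64 ± 0.083, adjusted p = 6.4e-07), but not called at 0.5 μM (−0.07) or 1 μM (0.03). FUCO-2 and RES did not differ beyond their spread (−0.14 ± 0.081, adjusted p = 0.151).

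ATF6 (chr1:161766320-161964070), the sensor that becomes a transcription factor, was set apart by RES. Its level was 59, 71.2 and 64.1 CPM in Con and 65.7, 66.6 and 65.5 CPM in Model. The FUCO groups gave 69.8, 70.6 and 61.4 CPM at 0.5 μM, 65.6, 70 and 57.1 CPM at 1 μM and 75.2, 83.1 and 77.1 CPM at 2 μM. The 3 RES libraries, at 136, 138 and 130 CPM, lay far above all others. The log2 fold change of RES against Model was 1.03 ± 0.081 (adjusted p = 1.73e-10), the only member past 1 in that comparison. The rise at FUCO-2 was small (0.25 ± 0.082, adjusted p = 0.0308) and was lost when any 1 of the 3 Model libraries, or FUCO-2 replicate 2, was left out (adjusted p up to 0.132).

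EIF2AK3 (chr2:88556741-88628145), which encodes PERK, followed the chaperones. It was at 42.3, 46.1 and 44.7 CPM in Con and 51.8, 57.2 and 58.2 CPM in Model, which do not overlap (0.33 ± 0.078, adjusted p = 0.00449). FUCO gave 46.2, 45.5 and 47.8 CPM at 0.5 μM, 44, 39.1 and 37 at 1 μM and 36.1, 39.5 and 40.6 at 2 μM, each below Model. It was lower at 1 μM (−0.48 ± 0.079) and 2 μM (−0.52 ± 0.079, adjusted p = 4.5e-05), and not called at 0.5 μM (−0.26, adjusted p = 0.114). RES, at 51.4, 54.2 and 48.9 CPM, overlapped Model (−0.11, adjusted p = 0.228). The EIF2AK3 locus overlaps the divergent transcript EIF2AK3-DT, whose counts were 8.12% of its own, and whether the counting used strand is not stated.

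XBP1 (chr22:28794560-28800569), the transcription factor made from the transcript that IRE1 splices, did not move with FFA. It stood at 527, 478 and 468 CPM in Con and 502, 490 and 510 CPM in Model (0.03 ± 0.069). All FUCO libraries were lower, with 420, 393 and 377 CPM at 0.5 μM, 425, 379 and 393 CPM at 1 μM and 386, 382 and 403 CPM at 2 μM. RES was at 523, 579 and 538 CPM, just above Model (0.13, adjusted p = 0.131). The fall had nearly the same size at each dose, −0.34 ± 0.069 (adjusted p = 0.00837), −0.33 ± 0.069 (adjusted p = 0.00647) and −0.36 ± 0.069 (adjusted p = 0.000675), and that at 0.5 μM was lost without Model replicate 3 or FUCO-0.5 replicate 3 (adjusted p up to 0.06). CREB3L2, a membrane-bound factor related to ATF6, ranged from 88.9 to 113 CPM over all libraries and was lower only at FUCO-2 (−0.19 ± 0.066, adjusted p = 0.039), a call lost in 13 alternative settings, among them leaving out any 1 Model or FUCO-2 library (adjusted p up to 0.123 without a library).

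Of the 9 HSP70 and HSP90 chaperones and their cofactors, 5 rose with FFA, 9 were lower at FUCO-2 and 5 were higher with RES. These were 55.6%, 100% and 55.6% of the list, against 8.43%, 9.71% and 24.4% of all genes. HSPA5 (chr9:125234853-125241343) encodes BiP, the ER HSP70 that also binds the luminal parts of the sensors. Its level was 1314, 1170 and 1183 CPM in Con and 1764, 1734 and 1860 CPM in Model. It was 1367, 1458 and 1419 CPM at FUCO-0.5, 1377, 1215 and 1169 at FUCO-1 and 1044, 1046 and 1126 at FUCO-2, and 2044, 2264 and 2179 CPM with RES. Model, FUCO-2 and RES were separate from each other and from Con, and FUCO-2 lay below Con. The log2 fold change was 0.55 ± 0.074 in Model against Con (adjusted p = 1.16e-05), −0.74 ± 0.074 in FUCO-2 against Model (adjusted p = 2.21e-07) and 0.28 ± 0.074 in RES against Model (adjusted p = 0.00321). The fall was −0.34 at 0.5 μM, where the call was lost without Model replicate 1 or 3 or FUCO-0.5 replicate 1 or 3 (adjusted p up to 0.105), and −0.51 at 1 μM. HSP90B1, the ER HSP90 also known as GRP94, ran most like HSPA5 over the 18 libraries (Pearson r of log2 CPM 0.97, a description over libraries that share their groups). It rose by 0.54 in Model and was −0.57 at FUCO-2.

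HYOU1 (chr11:119044188-119057205), the nucleotide exchange factor of BiP, was called higher with RES but not with FFA. Its level was 216, 186 and 205 CPM in Con and 224, 240 and 227 CPM in Model, which do not overlap (0.19 ± 0.075, adjusted p = 0.0902). FUCO gave 173, 177 and 200 CPM, 182, 164 and 187 CPM, and 174, 167 and 155 CPM at the 3 rising doses, and RES gave 331, 346 and 328 CPM. RES libraries exceeded all others, and those of FUCO lay below Model. The log2 fold change was −0.48 ± 0.075 at FUCO-2 (adjusted p = 8.19e-05) and 0.54 ± 0.075 with RES (adjusted p = 1.92e-06). At 0.5 μM its fall (−0.33, adjusted p = 0.0204) was lost when any 1 Model library, or FUCO-0.5 replicate 1 or 2, was left out (adjusted p up to 0.152).

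DNAJB9 (chr7:108569874-108574850) encodes ERdj4, a J-protein that restrains IRE1 together with BiP and is a known target of XBP1. It stood at 57.2, 64.8 and 67.3 CPM in Con and 56.3, 66 and 52.6 CPM in Model, which overlap (−0.11, adjusted p = 0.439). FUCO-0.5 gave 35.2, 32.8 and 31.7 CPM, FUCO-1 gave 31.3, 28.3 and 27.3, FUCO-2 gave 41.6, 35 and 44.5, and RES gave 71.8, 76.9 and 78.5. The lowest group was FUCO-1 and not FUCO-2. DNAJB9 had the largest fall of any member at the lower doses, −0.81 ± 0.096 for FUCO-0.5 (adjusted p = 5.61e-06) and −1.01 ± 0.097 for FUCO-1 (adjusted p = 1.03e-07), and a smaller one for FUCO-2 (−0.53 ± 0.095, adjusted p = 0.000316). FUCO-2 was higher than FUCO-1 when the doses were compared directly (0.48 ± 0.098, adjusted p = 0.00457). The other J-proteins, the BiP partner DNAJB11 and the kinase inhibitor DNAJC3, were lower at 1 μM (−0.39 and −0.41) and 2 μM (−0.45 and −0.53) and higher with RES (0.29 for each).

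MANF (chr3:51385291-51389397), a cofactor of BiP that is also secreted, was at 61.4, 72.3 and 73 CPM in Con and 70.7, 66.6 and 76.2 CPM in Model, which overlap (0.05, adjusted p = 0.757). It was at 59.5, 57.7 and 55.6 CPM with 0.5 μM FUCO, 57.9, 47.3 and 51.7 CPM with 1 μM, 40.1, 37.9 and 39 CPM with 2 μM and 65.1, 67.4 and 74.5 CPM with RES. Each FUCO-2 library was below every other library of the series. The log2 fold change of −0.87 ± 0.086 (adjusted p = 1.65e-07) was the largest fall of a member at FUCO-2.

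SDF2L1 (chr22:21642302-21644299), a partner of ERdj proteins, measured 51.3, 41.7 and 38.7 CPM in Con and 65.7, 63.3 and 67.7 CPM in Model. FUCO gave 51.6, 37.3 and 55.3 CPM, 49.9, 48.7 and 59.6 CPM, and 43.3, 34 and 37 CPM at the 3 doses, and RES gave 56.4, 62.9 and 67.3 CPM. It rose with FFA (0.58 ± 0.12, adjusted p = 0.00163) and was lower at FUCO-2 (−0.78 ± 0.12, adjusted p = 7.88e-05), and was not called at the lower doses (−0.45, adjusted p = 0.0673, and −0.32, adjusted p = 0.171). CRELD2 (chr22:49918634-49927537), a disulfide isomerase-like protein induced by ER stress, measured 60.3, 44.8 and 48.4 CPM in Con, 77.5, 74 and 73.2 CPM in Model, 57.1, 50.3 and 58.7 CPM in FUCO-0.5, 59, 49.1 and 60.3 CPM in FUCO-1, 50, 39 and 42.9 CPM in FUCO-2 and 78.7, 81.5 and 77.5 CPM in RES. Every FUCO library lay below Model, and the differences from Model were −0.44 (adjusted p = 0.022), −0.42 (adjusted p = 0.0195) and −0.77 (adjusted p = 1.01e-05) at the rising doses. Those at the 2 lower doses were lost when any 1 Model library, FUCO-0.5 replicate 1 or 2, or FUCO-1 replicate 2 was left out (adjusted p up to 0.151). RES did not change SDF2L1 (−0.08) or CRELD2 (0.08) beyond the spread.

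**Figure D4:**
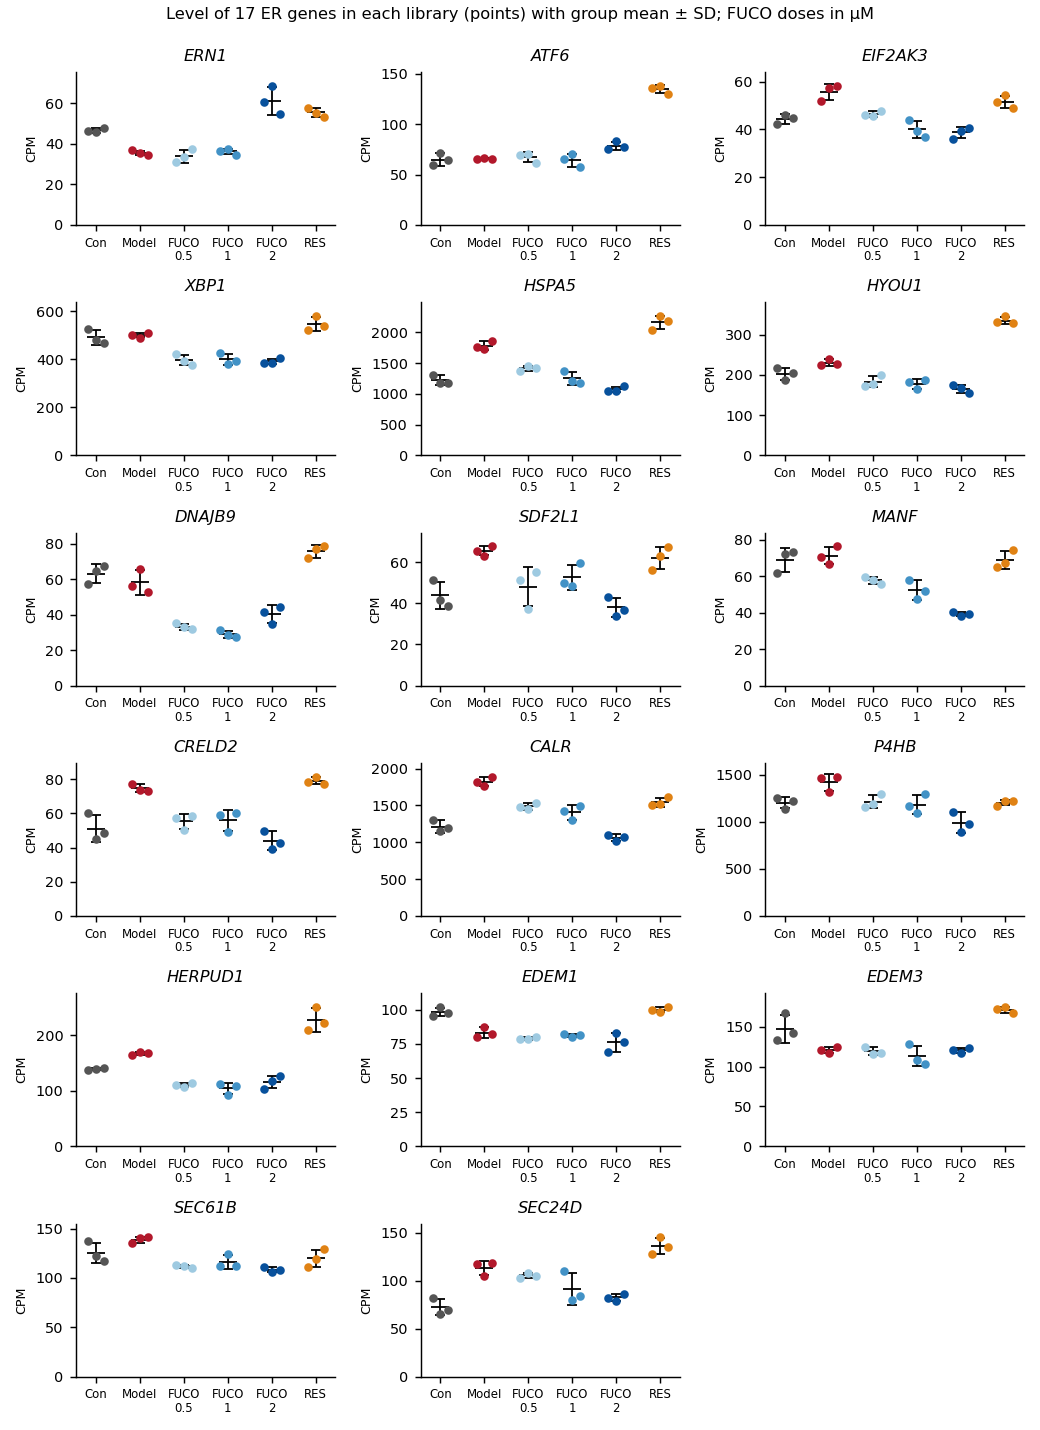
Level in CPM (y axis, from 0) of 17 members in each of the 18 libraries (points), with the mean ± SD of each group of 3. HSPA5, CALR and CRELD2 are high in Model and fall with FUCO, DNAJB9 is lowest at 1 μM, and ERN1 and ATF6 are higher in FUCO-2 and RES.

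All 4 disulfide isomerases rose with FFA and were lower at FUCO-2, where the lectins CALR and CANX were lower as well. The shares of all genes were 8.43% higher with FFA and 9.71% lower at FUCO-2. With RES, none of these 6 genes was called higher than Model and 2 were lower (P4HB and CALR). Of all genes, 24.4% were higher and 25.1% lower with RES, so the falls were near their share. P4HB (chr17:81843166-81860535), which encodes protein disulfide isomerase, was at 1250, 1136 and 1222 CPM in Con and 1461, 1315 and 1476 CPM in Model. FUCO gave 1159, 1187 and 1291 CPM, 1161, 1092 and 1292 CPM, and 1107, 894 and 970 CPM at the 3 doses, and RES gave 1170, 1220 and 1214 CPM. The groups treated with FUCO or RES lay below every Model library. The rise with FFA was at the edge of the threshold (0.24 ± 0.082, adjusted p = 0.046) and was lost in 11 alternative settings, among them leaving out Con replicate 2 or 3 or Model replicate 1 or 3 (adjusted p up to 0.194), while FUCO-2 was lower by a wider margin (−0.52 ± 0.082, adjusted p = 8.2e-05). RES was −0.24 ± 0.081 (adjusted p = 0.0177), a call lost without Model replicate 1 or 3 or RES replicate 1 (adjusted p up to 0.0722). PDIA3, PDIA4 and PDIA6 rose with FFA by 0.38, 0.44 and 0.21, and PDIA4 was lower at each dose (−0.33, −0.43 and −0.66). The rise of PDIA6 was lost without Con replicate 2 or 3 or any 1 Model library (adjusted p up to 0.0815). With RES they were not called (−0.09, −0.09 and 0.06).

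CALR (chr19:12938609-12944489) encodes calreticulin, the soluble lectin chaperone and calcium store protein of the ER. Its level was 1307, 1148 and 1187 CPM in Con and 1819, 1767 and 1889 CPM in Model. It was 1476, 1446 and 1539 CPM at FUCO-0.5, 1431, 1296 and 1486 at FUCO-1, 1103, 1012 and 1078 at FUCO-2 and 1502, 1516 and 1609 CPM with RES. Model was the highest group, and FUCO-2 lay below all Con libraries. The log2 fold change was 0.59 ± 0.071 in Model against Con (adjusted p = 2.73e-06), −0.78 ± 0.072 in FUCO-2 against Model (adjusted p = 5.76e-08) and −0.24 ± 0.071 in RES against Model (adjusted p = 0.00651). The call at 0.5 μM (−0.30, adjusted p = 0.03) was lost when any 1 Model or FUCO-0.5 library was left out (adjusted p up to 0.158). CANX, the membrane-bound relative of CALR, was lower only at FUCO-2 (−0.28 ± 0.076, adjusted p = 0.0107), not without Model replicate 3 (adjusted p = 0.0575).

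The ERAD genes, which carry misfolded proteins to the cytosol for degradation, counted 7 of 9 higher and 0 lower with RES, where 24.4% of all genes were higher, and 0 higher and 6 lower at FUCO-2, where 9.71% were lower. HERPUD1 (chr16:56932142-56944864), a membrane protein that assembles the degradation complex, was at 138, 139 and 141 CPM in Con and 165, 170 and 169 CPM in Model. FUCO gave 110, 107 and 114 CPM, 112, 92.6 and 109 CPM, and 104, 117 and 127 CPM at the 3 doses, and RES gave 210, 251 and 222 CPM. Every FUCO library was below Con and every RES library above Model. Its log2 fold change against Model was −0.61 at FUCO-0.5 (adjusted p = 3.38e-05), −0.69 at FUCO-1 (adjusted p = 3.76e-06) and −0.53 at FUCO-2 (adjusted p = 4.82e-05). It was higher with RES (0.44 ± 0.08, adjusted p = 6.69e-05). Its rise with FFA (0.27 ± 0.08, adjusted p = 0.0205) was lost without Con replicate 2 or 3 or Model replicate 2 or 3 (adjusted p up to 0.0663).

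EDEM1 (chr3:5187707-5219958) and EDEM3 (chr1:184690237-184754858) extract glycoproteins from the folding cycle. EDEM1 was at 95.7, 102 and 97.8 CPM in Con, 80, 87.5 and 82.4 CPM in Model, 78.5, 78.4 and 80.4 CPM in FUCO-0.5, 82, 80.2 and 81.5 CPM in FUCO-1, 68.8, 82.9 and 76.7 CPM in FUCO-2 and 100, 98.3 and 102 CPM in RES. EDEM3 was at 133, 167 and 142 CPM in Con, 121, 117 and 125 CPM in Model, 125, 116 and 117 CPM in FUCO-0.5, 128, 108 and 104 CPM in FUCO-1, 121, 117 and 124 CPM in FUCO-2 and 172, 175 and 167 CPM in RES. Both were low in every group that received FFA except RES. They fell with FFA, EDEM1 by 0.24 on the log2 scale (adjusted p = 0.0157) and EDEM3 by 0.28 (adjusted p = 0.0166), each lost without Con replicate 2, without Model replicate 1 and without 1 other Model library (adjusted p up to 0.0803 and 0.159). With RES they rose above Model by 0.27 ± 0.068 (adjusted p = 0.00227) and 0.51 ± 0.081 (adjusted p = 1.41e-05), and EDEM2 by 0.44, whereas no FUCO dose changed any of the 3 beyond the threshold.

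In the ubiquitin ligase complex of ERAD, the scaffold SEL1L was higher with RES (0.50 ± 0.073, adjusted p = 4.39e-06), as were the ligase SYVN1, also known as HRD1 (0.30 ± 0.085, adjusted p = 0.00503), and the channel protein DERL1 (0.44 ± 0.081, adjusted p = 7.39e-05). DERL2 was not (−0.13, adjusted p = 0.198), nor was the lectin OS9 (0.09, adjusted p = 0.327). At FUCO-2, OS9 (−0.42) and DERL2 (−0.42) were lower whichever library was left out. SEL1L (−0.25) and DERL1 (−0.26) lost the call without Model replicate 2 or 3 or FUCO-2 replicate 1 (adjusted p up to 0.0602 and 0.121), and SYVN1 (−0.27) without Model replicate 1 or 3 or FUCO-2 replicate 2 or 3 (adjusted p up to 0.138). The SYVN1 libraries of FUCO-2 and Model overlapped. The spans of SYVN1 and DERL2 overlap those of MRPL49 and MIS12, whose counts were 57.5% and 69.1% of theirs, so reads in the shared bases are uncertain.

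The remaining members act in translocation, ER exit and the ER membrane. SEC24D (chr4:118722823-118836126), a cargo-binding coat protein of vesicles leaving the ER, was at 82, 65.4 and 69.6 CPM in Con and 117, 105 and 118 CPM in Model. It was at 103, 108 and 105 CPM in FUCO-0.5, 110, 79.5 and 84 CPM in FUCO-1, 82.3, 78.9 and 86.3 CPM in FUCO-2 and 128, 145 and 135 CPM in RES. Its rise with FFA was the largest of any member (0.65 ± 0.098, adjusted p = 5.32e-05). It was lower at FUCO-2 (−0.46 ± 0.098, adjusted p = 0.00172), and its difference with RES (0.26 ± 0.096, adjusted p = 0.0264) was lost without Model replicate 2 or RES replicate 2 or 3 (adjusted p up to 0.126).

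SEC61B (chr9:99222282-99230615), a subunit of the translocation channel, was at 137, 122 and 117 CPM in Con, 135, 140 and 141 CPM in Model, 113, 112 and 110 CPM in FUCO-0.5, 112, 124 and 112 CPM in FUCO-1, 111, 106 and 108 CPM in FUCO-2 and 111, 119 and 129 CPM in RES. All treated groups lay below Model. It was lower by −0.31 (adjusted p = 0.0204), −0.26 (adjusted p = 0.0413) and −0.36 ± 0.072 (adjusted p = 0.000872) at the rising FUCO doses and by −0.21 ± 0.071 (adjusted p = 0.0148) with RES. The calls at 0.5 and 1 μM were lost when any 1 Model library was left out, as when any 1 FUCO-0.5 library or FUCO-1 replicate 1 or 3 was (adjusted p up to 0.109 and 0.151), and that with RES without RES replicate 1 (adjusted p = 0.102). The translocon-associated SSR1 (−0.23) and the translocon stabiliser SERP1 (−0.23) were lower at FUCO-2, and SSR1 was higher with RES (0.38 ± 0.076, adjusted p = 0.0002). Both calls at FUCO-2 were lost without Model replicate 3 or FUCO-2 replicate 2, and that of SSR1 also without Model replicate 1 or 2 or FUCO-2 replicate 1 (adjusted p up to 0.121 for SSR1 and 0.1 for SERP1). WFS1, the calcium-handling protein wolframin, ranged from 51.9 to 73.6 CPM and passed in no comparison.

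Over FFA, FUCO-2 and RES, the 34 members tested showed 11 patterns of calls. The 13 that rose with FFA were all lower at FUCO-2, and RES then left 7 of them uncalled (EIF2AK3, HSP90B1, SDF2L1, CRELD2, PDIA3, PDIA4 and PDIA6), 4 higher (HSPA5, DNAJB11, HERPUD1 and SEC24D) and 2 lower (P4HB and CALR) than Model. A further 7 did not pass with FFA, were lower at FUCO-2 and higher with RES (HYOU1, DNAJB9, DNAJC3, SEL1L, SYVN1, DERL1 and SSR1), and 7 were lower at FUCO-2 and uncalled with FFA and RES (XBP1, CREB3L2, MANF, CANX, DERL2, OS9 and SERP1). EDEM1 and EDEM3 were lower with FFA, uncalled at FUCO-2 and higher with RES, and ERN1 was lower with FFA and higher with both FUCO-2 and RES. ATF6 was higher with FUCO-2 and RES, SEC61B was lower with both, EDEM2 was higher with RES, and WFS1 was not called. The means of 31 of 34 members at FUCO-2 lay below Con, against 18 at 0.5 μM, 26 at 1 μM and 3 with RES, which is a description of means with no test. The mean fell at each step from Model through 0.5 and 1 to 2 μM in 19 members, and 10 were called lower at every dose. None of these counts, nor the patterns of calls, was made over all genes tested. They therefore have no background share beside them and are not read as particular to the members.

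The dose step from 1 to 2 μM was compared directly. Of the 34 members, 3 were higher at 2 μM and 5 lower (median −0.10), where 4.07% of all genes were higher and 2.23% lower. The higher members were ERN1 (0.76 ± 0.083, adjusted p = 5.14e-06), ATF6 (0.29 ± 0.082, adjusted p = 0.0349) and DNAJB9. The lower were SDF2L1 (−0.47 ± 0.12, adjusted p = 0.0241), MANF (−0.42 ± 0.086, adjusted p = 0.00411), CRELD2 (−0.35 ± 0.1, adjusted p = 0.0405), PDIA4 (−0.23 ± 0.062, adjusted p = 0.025) and CALR (−0.40 ± 0.071, adjusted p = 0.00113). Without FUCO-1 replicate 1 the count of 8 was 5, and without FUCO-1 replicate 3 or FUCO-2 replicate 2 or 3 it was 4. ERN1, DNAJB9, MANF and CALR were called whichever library was left out, and ATF6, SDF2L1, CRELD2 and PDIA4 were not (adjusted p up to 0.189, 0.151, 0.211 and 0.0945).

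RES and FUCO-2, the groups with the highest and the lowest summed level, were compared directly. RES was higher in 31 of 34 members and lower in 0 (median 0.55), where 22.5% of all genes were higher and 26.0% lower. HYOU1 (1.02 ± 0.076, adjusted p = 8.05e-11) and HSPA5 (1.01 ± 0.075, adjusted p = 6.79e-11) differed most, and the smallest called differences were those of CREB3L2 (0.19), P4HB (0.28) and DERL2 (0.29). These 3 calls were each lost without a library, CREB3L2 without FUCO-2 replicate 3 or RES replicate 2 (adjusted p up to 0.077), P4HB without FUCO-2 replicate 2 (adjusted p = 0.0523) and DERL2 without RES replicate 3 (adjusted p = 0.0611). ERN1, SEC61B (0.15 ± 0.072, adjusted p = 0.0944) and WFS1 (0.08 ± 0.11, adjusted p = 0.532) did not pass.

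The members with an ERSE or ERSE-II in the promoter and those without can be set side by side. Of the 10 with a match, 6 rose and 0 fell with FFA (median 0.41), 10 of 10 were lower at FUCO-2 (median −0.55), and 3 were higher and 1 lower with RES (median 0.13). Over all genes tested the shares were 8.43% higher and 9.12% lower with FFA, 9.71% lower at FUCO-2, and 24.4% higher and 25.1% lower with RES. The rises with RES were thus near the share of all genes. Of the 21 with a promoter entry and no match, 5 rose and 3 fell with FFA (median 0.06), 2 were higher and 15 lower at FUCO-2 (median −0.36), and 11 were higher and 2 lower with RES (median 0.27). Another 26 genes outside the list hold a match, of which 15 were tested. With FFA, 1 of these rose and 2 fell (median 0.06), at FUCO-2 edgeR and DESeq2 each called 0, with 1 higher and 3 lower at an unadjusted p under 0.05 (median −0.06), and with RES 4 were higher and 3 lower (median −0.11). The gene among them that rose with FFA was the ER oxidase ERO1B (0.51 ± 0.14, adjusted p = 0.0124). Genes that hold the element were thus also found among those not called.

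The rest of the pathway was described by further lists, with 141 of their 146 genes tested. Of these, 29 rose and 9 fell with FFA, 0 were higher and 15 lower at 0.5 μM, 1 and 21 at 1 μM, 10 and 61 at 2 μM, and 55 and 24 with RES. As shares of the 141 genes these were 20.6% higher and 6.38% lower with FFA (8.43% and 9.12% of all genes), 7.09% and 43.3% at FUCO-2 (10.8% and 9.71%) and 39% and 17% with RES (24.4% and 25.1%). At 0.5 μM they were 0% and 10.6% (0.289% and 1.16% of all genes), and at 1 μM 0.709% and 14.9% (0.893% and 2.32%). Of 28 ER exit and retrieval genes, 10 were higher and 0 lower with FFA, 0 and 18 at FUCO-2, and 8 and 6 with RES, the last being 28.6% and 21.4%, near the shares of all genes. The receptors that return escaped chaperones to the ER led the rises with FFA, KDELR3 (0.73 ± 0.092, adjusted p = 4.76e-06) and KDELR2 (0.48 ± 0.073, adjusted p = 5.04e-05), and also the falls at FUCO-2 (−0.64 and −0.61). Other folding genes counted 7 higher and 1 lower of 31 with FFA, 0 and 10 at FUCO-2 and 11 and 5 with RES, with the isomerase PDIA5 lower at all doses (−0.42, −0.35 and −0.69). Other translocation genes counted 5 and 0 of 29, 0 and 19, and 7 and 3 in the same comparisons, and other ERAD genes 4 and 0 of 23, 2 and 10, and 10 and 6. With FFA, 22.6%, 17.2% and 17.4% of the folding, translocation and ERAD lists were higher. At FUCO-2, 32.3%, 65.5% and 43.5% were lower. With RES, 35.5%, 24.1% and 43.5% were higher and 16.1%, 10.3% and 26.1% lower. The translocation rises and the ERAD falls with RES were thus near the shares of all genes. SELENOS, a membrane anchor of the degradation machinery, was lower at each dose (−0.39, −0.38 and −0.67).

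Of the 20 genes of the PERK and ATF4 branch, 1 rose and 8 fell with FFA (median −0.25), 0 were higher and 9 lower at 0.5 μM, 1 and 6 at 1 μM, 8 and 2 at 2 μM (median 0.19) and 14 and 2 with RES (median 0.63). These were 5% higher and 40% lower with FFA, 40% and 10% at FUCO-2 and 70% and 10% with RES. Over all genes the shares were 8.43% and 9.12%, 10.8% and 9.71%, and 24.4% and 25.1%. At 0.5 μM the list gave 0% higher and 45% lower, against 0.289% and 1.16% of all genes. At 1 μM it gave 5% and 30%, against 0.893% and 2.32%. ATF3, a stress-induced factor, was the 1 gene of the list that rose with FFA (0.67 ± 0.12, adjusted p = 0.000415). It was lower with FUCO at 0.5 μM (−2.06 ± 0.13), 1 μM (−2.37 ± 0.13) and 2 μM (−1.16 ± 0.12). PPP1R15A, which reverses the translational block set by PERK, was −1.16, −1.32 and −0.44 at these doses. ATF3 and PPP1R15A were the 2 falls at 2 μM. The 8 falls with FFA were led by TRIB3 (−0.63 ± 0.083), DDIT4 (−0.53 ± 0.12) and the secreted glycoprotein STC2 (−0.52 ± 0.096). The 8 rises at 2 μM were led by STC2 (1.12 ± 0.095), DDIT4 (0.94 ± 0.12) and the cystine transporter SLC7A11 (0.66 ± 0.1). In the direct comparison of 2 with 1 μM, 17 of the 20 genes were higher and 0 lower (median 0.46). This was 85% of the list higher, where 4.07% of all genes were higher and 2.23% lower. ATF3 (1.21 ± 0.13) and STC2 (1.04 ± 0.094) led the rises between these doses. STC2 (1.78 ± 0.094) and SLC7A11 (1.46 ± 0.1) led the rises with RES.

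**Figure D5:**
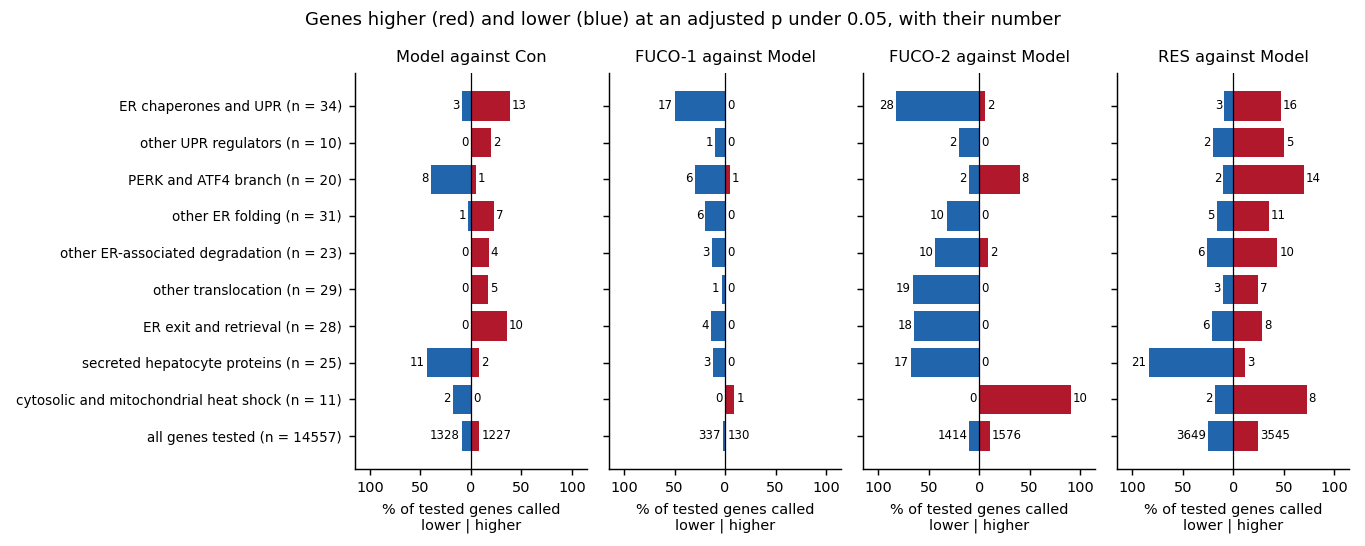
Share of the tested genes of each list called lower (blue, to the left) and higher (red, to the right) in 4 comparisons, in percent on the x axis, with the number of genes beside each bar and all 14557 genes in the lowest row. The 34 members have 28 lower calls at FUCO-2, whereas 8 of the 20 PERK and ATF4 genes and 10 of the 11 heat shock genes are higher there.

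Other UPR regulators, 10 of which were tested, counted 2 higher with FFA, the membrane-bound factors CREB3L3 (1.80 ± 0.17, adjusted p = 4.97e-08) and CREB3 (0.50 ± 0.088, adjusted p = 0.00027), and 5 higher and 2 lower with RES. These were 20% higher with FFA (8.43% of all genes), and 50% higher and 20% lower with RES (24.4% and 25.1%). The falls with RES were thus near the share of all genes. The proteases that cut ATF6 in the Golgi were among the rises with RES, MBTPS2 (0.57 ± 0.083, adjusted p = 3.98e-06) and MBTPS1 (0.50 ± 0.063, adjusted p = 4.26e-07), and CREB3L3 was the largest fall (−1.86 ± 0.16, adjusted p = 1.16e-09). Chaperones of the cytosol and mitochondria moved in the opposite direction to the ER chaperones at FUCO-2, where 10 of 11 were higher (median 0.51). This was 90.9% of the list, against 10.8% of all genes. HSPA1A had the largest rise (1.12 ± 0.14, adjusted p = 4.14e-06), at a low level (8.41 CPM in FUCO-2 and 3.88 in Model). It shares reads with its near-identical copy HSPA1B. With RES, 8 of the 11 were higher and 2 lower (72.7% and 18.2%, against 24.4% and 25.1% of all genes). There the larger number was higher, as among the ER chaperones. Of 25 secreted hepatocyte proteins, which pass through the ER, 2 rose and 11 fell with FFA (median −0.25), 0 rose and 17 fell at FUCO-2 (median −0.51), and 3 rose and 21 fell with RES (median −1.86). These were 8% and 44%, 0% and 68%, and 12% and 84% of the list. The shares of all genes were 8.43% and 9.12%, 10.8% and 9.71%, and 24.4% and 25.1%. AFP fell with RES by −4.72 ± 0.16, whereas the 3 rises were the fibrinogen chains FGA (1.70), FGG (1.24) and FGB (0.42). A link between these cargo transcripts and the ER genes was not tested.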

How the data were processed

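Hep3B cells were profiled in 6 groups of 3 libraries, assigned by their titles. The deposited counts were made by the authors from polyA-enriched paired-end reads with fastp, STAR (GRCh38.p14) and featureCounts, with no normalization. Their handling of strand and of multiply matching reads is not given in the sources used here. All 18 columns held whole numbers and were used. Totals ran from 16916688 to 23083498 counts, reads carry no molecular identifiers, and precision therefore rests on the spread between libraries.

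Counts were fitted in R 4.3.3 with edgeR 4.0.16 (filterByExpr, with at least 10 counts in a library and 15 in total, then scaling by the trimmed mean of M values, TMM, a prior count of 0.125 and a quasi-likelihood fit of all 18 libraries), and p-values were adjusted by Benjamini-Hochberg over 14557 genes. The methods of the study use DESeq2, run here as an alternative (1.42.0). Other alternatives were RLE scaling, other count filters, fits of only the groups compared, a replicate block, a log2 fold threshold of 1 and leaving out each library. Members, pathway lists and marker lists were chosen with earlier results of these data known, so no p is adjusted over a list. Genes named singly are the HSPA5, ERN1, ATF6, EIF2AK3 and XBP1 genes and, in each comparison with Con or Model, up to 4 called members per direction with the largest change and no overlap between the groups' libraries, and other members are given for their role. In the other lists up to 3 called genes per direction were eligible. Transcript lengths were those of GENCODE v44 canonical transcripts, and positions and promoters came from RefSeq (GRCh38.p14). Protein sequences were not used here.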

Additional observations from a re-analysis of the deposited data

Results flagged for a closer look

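Members that differed in the direct comparison of 2 treated groups, both of which received FFA, are listed here by role with the log2 fold change and no explanation. Each passed an adjusted p of 0.05 in the edgeR quasi-likelihood fit. From 1 to 2 μM FUCO the sensors ERN1 (0.76) and ATF6 (0.29) and the J-protein DNAJB9 (0.48) were higher, and SDF2L1 (−0.47), MANF (−0.42), CRELD2 (−0.35), PDIA4 (−0.23) and CALR (−0.40) were lower. The CRELD2 libraries of these doses overlapped.

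RES against FUCO-2 was higher in 31 members. Among sensors and factors these were ATF6 (0.78), EIF2AK3 (0.41), XBP1 (0.49) and CREB3L2 (0.19). Chaperones and cofactors were HSPA5 (1.01), HSP90B1 (0.75), HYOU1 (1.02), DNAJB9 (0.91), DNAJB11 (0.74), DNAJC3 (0.83), SDF2L1 (0.71), MANF (0.82) and CRELD2 (0.85). Isomerases and lectins gave smaller differences, with PDIA3 (0.52), PDIA4 (0.57), PDIA6 (0.45), P4HB (0.28), CALR (0.54) and CANX (0.33). The ERAD genes were SEL1L (0.75), SYVN1 (0.57), HERPUD1 (0.97), DERL1 (0.70), DERL2 (0.29), EDEM1 (0.39), EDEM2 (0.49), EDEM3 (0.51) and OS9 (0.50). SSR1 (0.61), SERP1 (0.38) and SEC24D (0.72) completed the list. Groups of 3 are too small for the test for outlying libraries.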

How the results depend on the processing

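Apart from the fold threshold, none of the 131 called values of single members reversed in any of 3144 alternative values, of which 2989 stayed on their side of the threshold and 155 did not, and 97 calls held in every such alternative. These were 11 of 16 in Model against Con, 3 of 10, 13 of 17 and 22 of 30 at the rising FUCO doses, 16 of 19 with RES, 4 of 8 between FUCO doses and 28 of 31 between RES and FUCO-2. With a fold threshold of 1 on the log2 scale the counts of members called, in the same order, were 0, 0, 1 (DNAJB9), 0, 1 (ATF6), 0 and 2 (HSPA5 and HYOU1). A fit of only FUCO-1 and FUCO-2 called 5 in place of 8. Leaving out each library in turn gave 11 to 18 members in Model against Con, 3 to 12, 13 to 19 and 22 to 30 at the rising FUCO doses, 17 to 20 with RES, 4 to 9 between doses and 30 to 32 between RES and FUCO-2.

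Same-numbered libraries of different groups deviated together little (median r 0.01, range −0.137 to 0.171 over 45 pairs, 5 above 0.1), and 9 of 18 libraries correlated best with their own number. The libraries numbered 2 outside RES all correlated positively with each other (r 0.0318 to 0.1706). Libraries of unlike number reached a higher r (0.232, FUCO-0.5 replicate 3 with FUCO-2 replicate 1), so the numbers were not taken to pair them. With a replicate block the members called were 16, 11, 17, 30, 19, 9 and 31. DERL3 could not be assessed at 0 to 3 counts.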
